A study of Danio rerio with 10 samples.

Results

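The genes described here encode star and the enzymes that turn cholesterol into the androgens of the fish testis. They were taken from a list of 10 symbols, star, cyp11a1, cyp11a2, cyp17a1, cyp17a2, hsd3b1, hsd3b2, hsd17b3, cyp11c1 and hsd11b2, by exact match to the gene symbol of an array probe, and 8 of the 10 were found among 19260 genes with a probe of their own. No probe carried the symbol cyp11a1 or cyp11a2, and those 2 genes are not analysed here under these names. Each of the 8 genes had a single probe, so no choice between probes was made.

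RNA came from the testes of wildtype AB zebrafish (Danio rerio) males that were 1 year old, and each sample was read on its own whole-transcript Affymetrix array. In the TCDD group, 5 samples came from males kept for 1 h in water with 50 pg/ml of TCDD (2,3,7,8-tetrachlorodibenzo-p-dioxin, a dioxin that binds the aryl hydrocarbon receptor) at 3 weeks after fertilization and again at 7 weeks. In the DMSO group, 5 samples came from males that had received the solvent at the same ages. The labels number the samples of each group as biological replicates 1 to 5 and do not say whether fish were pooled, and p-values measure the spread between these samples.

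Steroid synthesis starts when Star carries cholesterol to the inner mitochondrial membrane. The side chain is then removed by Cyp11a enzymes, and Hsd3b and Cyp17a enzymes convert the product into androstenedione. Hsd17b3 reduces androstenedione to testosterone. In fish, Cyp11c1 and Hsd11b2 go on to form 11-ketotestosterone, the main androgen of male teleosts. In the testis these steps belong to the Leydig cells between the seminiferous tubules. The interrenal cells of the head kidney, which make cortisol, use several of the same genes.

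Along most of this pathway the TCDD testes had the higher group mean, by 0.40 to 0.83 on the log2 scale (a fold of 1.32 to 1.77) in 7 of 8 genes. star differed by 0.83, hsd3b1 by 0.75, cyp17a2 by 0.71, cyp17a1 by 0.65 and hsd3b2 by -0.10. The order of these differences was not the same without DMSO 1, where star was at 0.43, hsd3b1 at 0.52, cyp17a2 at 0.56 and cyp17a1 at 0.40. In every gene the groups overlapped, and 0 of 8 genes passed an adjusted p of 0.05 in limma (the background over all genes was 0%, 0 of 19260). At an unadjusted p under 0.05, 2 of 8 were higher in TCDD, cyp17a1 and cyp17a2, where 0.8% of all genes were called in that direction. The median difference of the 8 genes was 0.57, and that of all genes was 0.018. A difference above 0 was seen in 54.6% of all genes. In the exact permutation test 3 of 8 genes were higher in TCDD at an unadjusted p under 0.05, star, cyp17a2 and cyp11c1. In that direction 0.826% of all genes were called, and 2.98% in either direction.

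**Figure D1:**
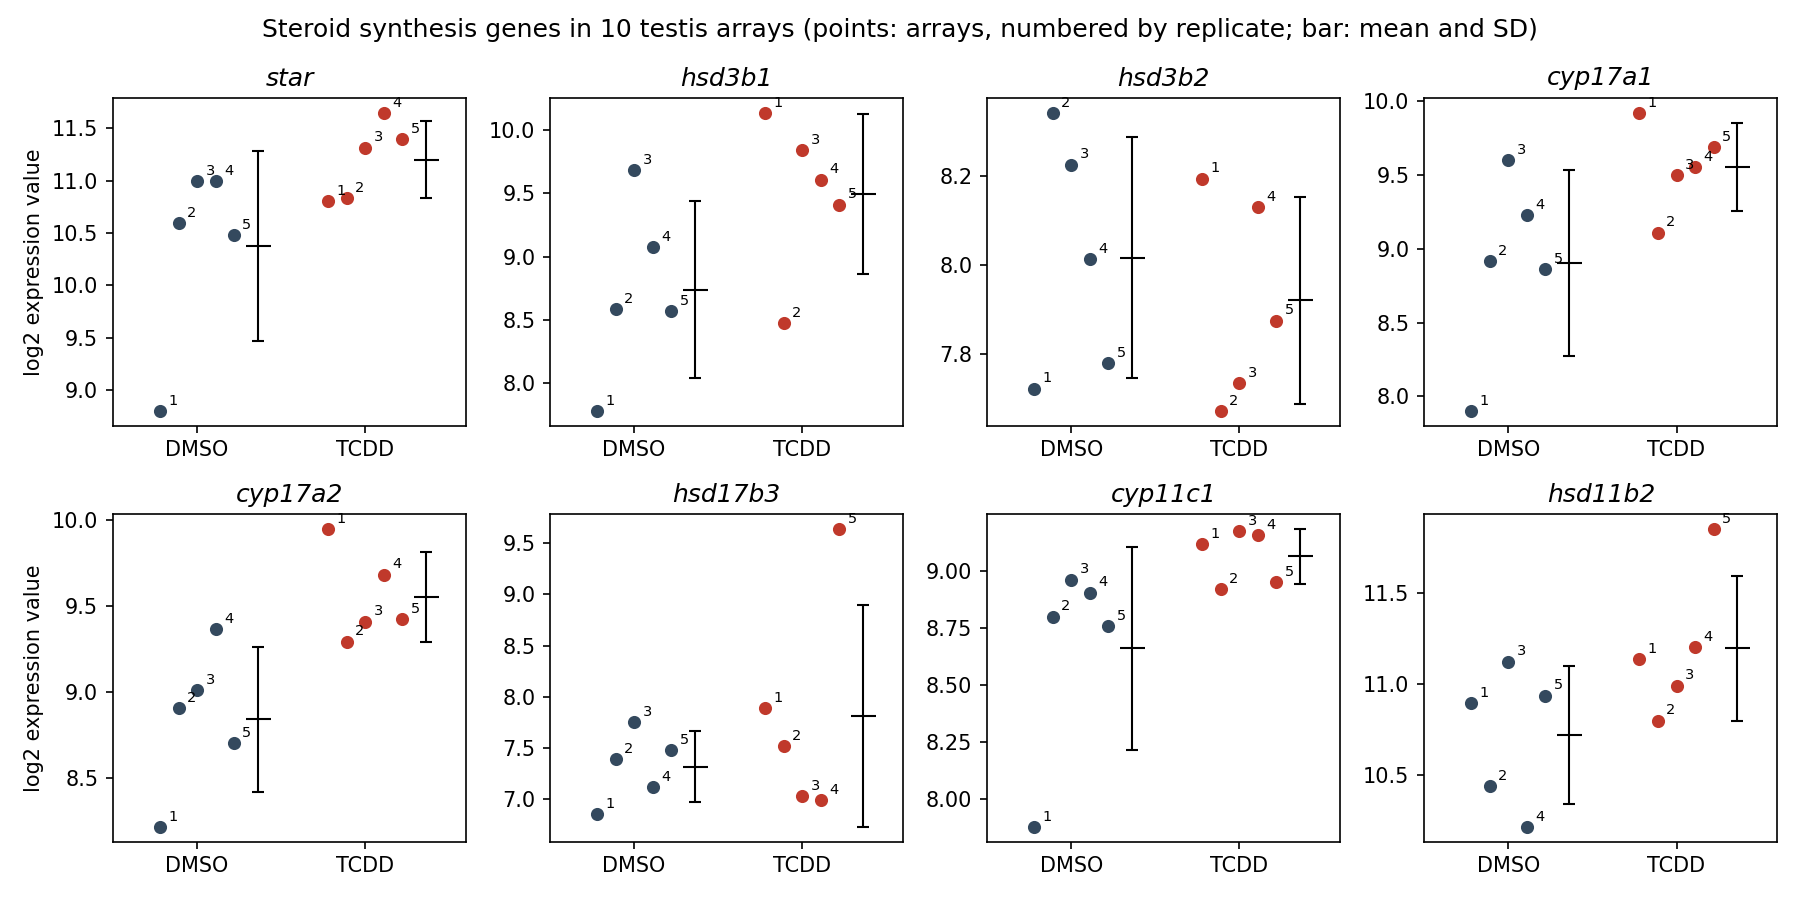
Log2 expression value of the 8 genes (vertical axes, which differ between panels) in each of 10 testis arrays, with DMSO at left and TCDD at right. Points are arrays with their replicate number, and the bar gives the mean and SD of the 5 arrays. DMSO 1 is the lowest array in 6 of 8 panels, and the TCDD 5 point of hsd17b3 stands at 9.64.

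The arrays differed in tissue content, and its part in the values below was not tested beyond the fits given there. DMSO 1 had a mean correlation of 0.918 to the other arrays, which had 0.952 to 0.961. Over 22 measured intestine genes, DMSO 1 averaged 10.8, TCDD 2 averaged 10.4 and TCDD 3 averaged 9.65, while the remaining arrays lay at 6.54 to 7.19. For 30 liver genes the mean reached 10.5 in TCDD 5, whereas TCDD 1 to TCDD 4 had 7.54 to 8.35 and the DMSO arrays 6.93 to 7.71. The mean of 16 pancreas genes was 12.1 in DMSO 1 and 7.63 to 10.8 elsewhere. Germ cell genes averaged 8.50 in DMSO 1 and 10.2 to 11.0 in the other 9 arrays. The mean of 9 oocyte genes was 7.23 in TCDD 3, 7.43 in TCDD 4 and 6.31 to 6.69 elsewhere. In a bulk sample, fewer Leydig cells and less RNA per Leydig cell cannot be told apart.

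Markers of Leydig and interrenal cells are given here beside the Leydig cell label. A list of 14 genes of Leydig cells and their control averaged 8.53 in DMSO 1. The DMSO arrays spanned 8.47 to 8.66 and the TCDD arrays 8.82 to 8.97. The list was drawn up with earlier results of these arrays known, so this separation is no independent evidence of a group difference. It includes nr5a1b and sik1, whose groups did not overlap. insl3, the insulin-like hormone of Leydig cells, was at 11.1 to 11.9 in 9 arrays and at 7.09 in DMSO 1. In DMSO 1, nr5a1b was at 8.70 (DMSO mean 9.49), gata4 at 9.84 (DMSO mean 9.68) and pdgfra at 8.67 (DMSO mean 7.87). nr0b2a and gramd1bb of the same list were at 10.00 and 10.27 there (DMSO means 7.65 and 8.16). In TCDD 2 and TCDD 3, also with high intestine scores, gramd1bb was at 9.30 and 9.19 and nr0b2a at 7.99 and 9.39. The list mean of DMSO 1 thus combines genes that were low and genes that were high there. lhcgr, the luteinizing hormone receptor gene, lay between 7.34 and 8.02 in all arrays, with its probe at the 65.3 percentile of all probes. Of the interrenal markers, mc2r, the ACTH receptor gene, lay between 7.55 and 8.21, with its probe at the 69.95 percentile, above that of lhcgr. Probes differ in how well they bind, so the percentiles of different probes do not compare the levels of their genes. The 21-hydroxylase gene of cortisol synthesis, cyp21a2, lay between 5.80 and 6.38, with its probe at the 38.3 percentile. cyp21a2 differed by -0.02 between the groups (95% CI -0.35 to 0.31). Of the 5 measured genes of the interrenal list, 0 were higher and 1 was lower at an unadjusted p under 0.05 in limma (0.8% and 1.68% of all genes). The lower gene was th, the tyrosine hydroxylase gene, at -0.31 (95% CI -0.60 to -0.02). Its product and that of dbh act in catecholamine synthesis, not in cortisol synthesis. Every TCDD array of th lay below every DMSO array, as in 76 of 19260 genes, and its probe stood at the 37.1 percentile. mrap, the accessory protein of the ACTH receptor, differed by -0.19 and dbh by -0.06. The mean of the log2 values of the interrenal list was 6.42 to 6.72 in TCDD and 6.48 to 6.89 in DMSO.

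star (probe 13255466) encodes the protein that delivers cholesterol to the mitochondrion, the entry step of the pathway. It was at 10.80, 10.84, 11.32, 11.65 and 11.40 in TCDD 1 to TCDD 5 and at 8.80, 10.59, 11.00, 10.99 and 10.48 in DMSO 1 to DMSO 5. TCDD 3, TCDD 4 and TCDD 5 lay above every DMSO array, TCDD 1 and TCDD 2 lay within the DMSO range, and DMSO 1 was 1.68 below the next lowest array. The group means of 11.20 ± 0.37 and 10.37 ± 0.91 (SD, n = 5 each) were 0.83 apart, with a 95% CI of -0.03 to 1.68 and a limma adjusted p of 1.00. The exact two-sided permutation test gave an unadjusted p of 0.0476. All 5 TCDD arrays lay above the DMSO mean, as did every DMSO array but DMSO 1. Without DMSO 1 the difference was 0.43 (95% CI -0.01 to 0.87), as the DMSO mean became 10.77 ± 0.27 (SD, n = 4).

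The side-chain cleavage step has no gene found by the exact match. The array carried probes for cyp11a1.1 and cyp11a1.2, and RefSeq (assembly GRCz12tu) lists cyp11a1 and P450scc among the synonyms of cyp11a1.1. Their values are given for context and were chosen outside the rule. cyp11a1.2 was at 7.91, 7.50, 7.93, 8.51 and 7.68 in TCDD 1 to TCDD 5 and at 6.09, 6.90, 7.44, 8.20 and 7.19 in DMSO 1 to DMSO 5. All TCDD arrays lay above the DMSO mean of 7.17, as did DMSO 3, DMSO 4 and DMSO 5, and 1 TCDD array lay above all DMSO arrays. cyp11a1.2 differed by 0.74 (95% CI -0.01 to 1.50) at a limma adjusted p of 1.00, and by 0.47 without DMSO 1. For cyp11a1.1 the TCDD mean was 7.40 ± 0.35 and the DMSO mean 7.07 ± 0.38 (SD, n = 5 each), which differed by 0.34 (95% CI -0.14 to 0.81), with DMSO 4 at 7.72 above all TCDD arrays. Both genes lie on the same chromosome in that assembly, and how far a probe of one takes up transcripts of the other was not tested.

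hsd3b1 and hsd3b2 encode 3-beta-hydroxysteroid dehydrogenases, which convert pregnenolone and its products into the active delta-4 steroids. hsd3b1 (probe 13259387) was at 10.14, 8.48, 9.84, 9.61 and 9.41 in TCDD 1 to TCDD 5 and at 7.78, 8.59, 9.68, 9.08 and 8.57 in DMSO 1 to DMSO 5. TCDD 2 was the lowest TCDD array and lay below the DMSO mean, and TCDD 1 and TCDD 3 lay above every DMSO array. The group means, 9.49 ± 0.63 and 8.74 ± 0.70 (SD, n = 5 each), differed by 0.75 with a 95% CI of -0.07 to 1.58 (limma adjusted p = 1.00). It was 0.52 without DMSO 1 and 1.01 without TCDD 2, the 2 arrays with the most intestine transcripts. Without both of them it was 0.77 (95% CI 0.20 to 1.34).

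hsd3b2 (probe 13093758) was the 1 gene with a lower mean in TCDD. It was at 8.19, 7.67, 7.73, 8.13 and 7.87 in TCDD 1 to TCDD 5 and at 7.72, 8.34, 8.23, 8.01 and 7.78 in DMSO 1 to DMSO 5. The TCDD arrays lay inside the DMSO range except TCDD 2, which was the lowest of all, and the highest array was DMSO 2. The difference was -0.10 (95% CI -0.45 to 0.26), and an interval this wide includes both a higher and a lower level in TCDD. Within arrays, the log2 value of hsd3b1 minus that of hsd3b2 had a TCDD mean of 1.57 ± 0.51 and a DMSO mean of 0.72 ± 0.58 (SD, n = 5 each), so that this within-array value was 0.85 higher in TCDD. Probes differ in how well they bind, and these within-array values compare arrays and not the levels of the 2 genes.

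cyp17a1 and cyp17a2 encode 17-hydroxylases. Cyp17a1 also carries the lyase activity that yields androgens, which Cyp17a2 of fish largely lacks. cyp17a1 (probe 13003733) was at 9.92, 9.11, 9.50, 9.55 and 9.69 in TCDD 1 to TCDD 5 and at 7.90, 8.92, 9.60, 9.23 and 8.86 in DMSO 1 to DMSO 5. All TCDD arrays lay above the DMSO mean, as did DMSO 2, DMSO 3 and DMSO 4. TCDD 1 and TCDD 5 lay above every DMSO array, of which DMSO 3 was the highest. TCDD exceeded DMSO by 0.65 with a 95% CI of 0.03 to 1.27 (limma adjusted p = 1.00), from means of 9.55 ± 0.30 and 8.90 ± 0.63 (SD, n = 5 each). Without DMSO 1 it was 0.40 (95% CI -0.03 to 0.83), which no longer had an unadjusted p under 0.05.

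cyp17a2 (probe 13136842) had the smallest p of the 8 genes. It was at 9.95, 9.29, 9.41, 9.68 and 9.42 in TCDD 1 to TCDD 5 and at 8.21, 8.90, 9.01, 9.36 and 8.70 in DMSO 1 to DMSO 5. TCDD 2 was the 1 TCDD array that did not exceed every DMSO array, since DMSO 4 lay above it. With means of 9.55 ± 0.26 and 8.84 ± 0.42 (SD, n = 5 each), TCDD exceeded DMSO by 0.71 with a 95% CI of 0.25 to 1.18. The limma adjusted p was 1.00, and the exact two-sided permutation p was 0.0159 before adjustment. Its interval stayed above 0 when DMSO 1 was left out, at 0.56 (95% CI 0.18 to 0.94). Over 10 arrays cyp17a2 minus cyp17a1 ranged from -0.59 to 0.31 and averaged -0.00276 in TCDD and -0.06 in DMSO, so that the shift between groups was 0.06 larger for cyp17a2, less than the SD of either group (0.18 and 0.34).

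hsd17b3 (probe 13246651), whose product reduces androstenedione to testosterone, was set apart by 1 array. It was at 7.89, 7.52, 7.03, 6.99 and 9.64 in TCDD 1 to TCDD 5 and at 6.86, 7.39, 7.75, 7.12 and 7.48 in DMSO 1 to DMSO 5. TCDD 5 lay 1.74 above the next highest array, and TCDD 3 and TCDD 4 lay below the DMSO mean. The group difference was 0.49 with a 95% CI of -0.49 to 1.48 (limma adjusted p = 1.00), and was 0.04 (95% CI -0.49 to 0.57) without TCDD 5. TCDD 5 was also the array with the highest liver score, at 10.5, and with the liver score as a covariate the difference of hsd17b3 was -0.32 (95% CI -0.94 to 0.30). The part of liver transcripts in this value was not tested beyond these fits.

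cyp11c1 (probe 13042740) encodes the 11-beta-hydroxylase. It was at 9.12, 8.92, 9.17, 9.16 and 8.95 in TCDD 1 to TCDD 5 and at 7.88, 8.80, 8.96, 8.90 and 8.76 in DMSO 1 to DMSO 5. All 5 TCDD arrays lay above the DMSO mean, as did every DMSO array but DMSO 1. Of the TCDD arrays, 3 lay above DMSO 3, the highest DMSO array. The difference was 0.40 (95% CI -0.03 to 0.84, limma adjusted p = 1.00, exact two-sided permutation p = 0.0238 before adjustment), and 0.21 (95% CI -0.03 to 0.45) without DMSO 1, where the DMSO mean was 8.86 ± 0.09 (SD, n = 4).

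hsd11b2 (probe 13238126) encodes an 11-beta-hydroxysteroid dehydrogenase, which completes 11-ketotestosterone and also inactivates cortisol. It was at 11.14, 10.80, 10.99, 11.20 and 11.85 in TCDD 1 to TCDD 5 and at 10.90, 10.44, 11.12, 10.22 and 10.94 in DMSO 1 to DMSO 5. TCDD 5 was the highest array and DMSO 4 the lowest, and DMSO 1 lay above the DMSO mean, unlike in every other gene of the set. The difference was 0.47 (95% CI -0.03 to 0.98, limma adjusted p = 1.00), from means of 11.20 ± 0.40 and 10.72 ± 0.38 (SD, n = 5 each). It was 0.52 without DMSO 1 and 0.31 without TCDD 5, and 0.16 (95% CI -0.32 to 0.65) with the liver score as a covariate.

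**Figure D2:**
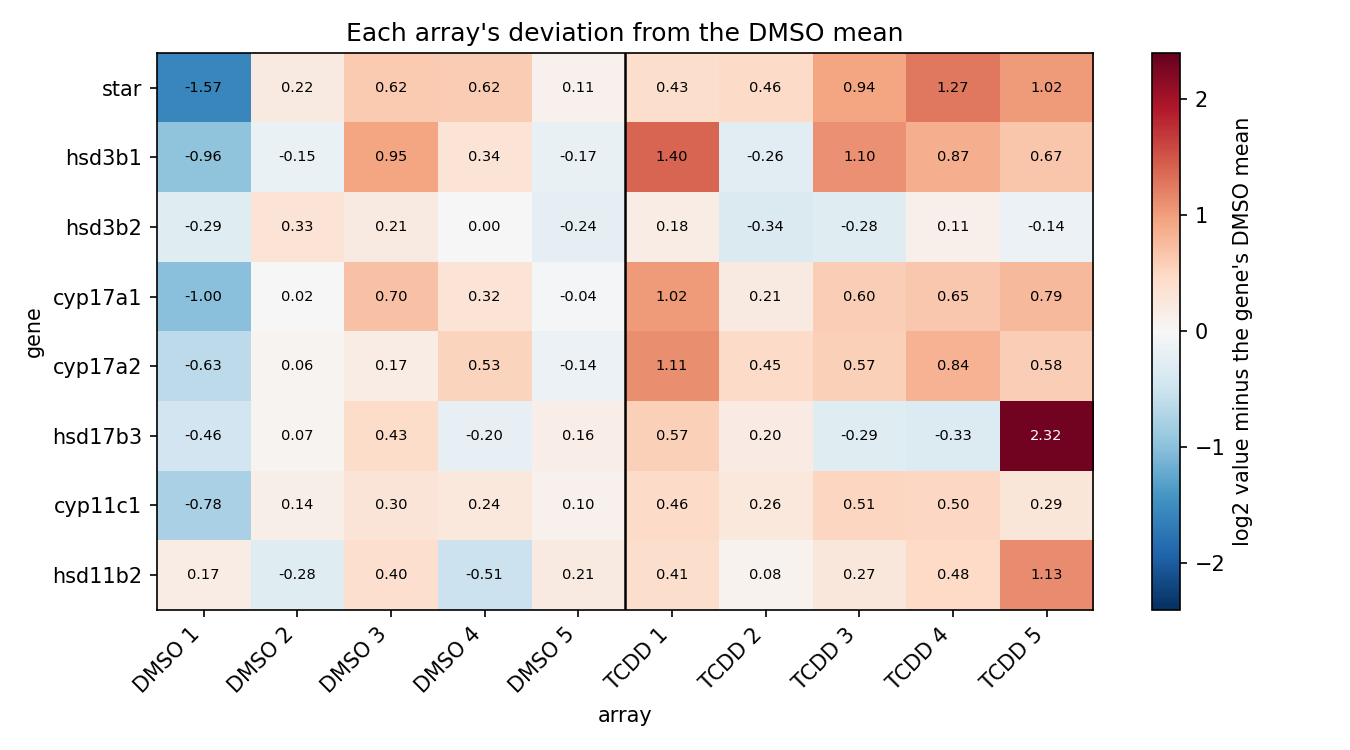
Each array's log2 value minus the DMSO mean of the same gene, for 8 genes (rows, in pathway order) and 10 arrays (columns, DMSO left of the line and TCDD right). Red is above and blue below the DMSO mean. The DMSO 1 column is below it in all genes but hsd11b2, and DMSO 3 is above it in all 8.

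The arrays ranked much alike over several of these genes. All 8 genes of TCDD 1 and of DMSO 3 lay above the respective DMSO means, and 7 of 8 in TCDD 4 and TCDD 5, 6 of 8 in TCDD 2, TCDD 3 and DMSO 2, 5 of 8 in DMSO 4, 4 of 8 in DMSO 5 and 1 of 8 in DMSO 1. The mean deviation over the 8 genes was 0.13 in TCDD 2 and 0.43 to 0.83 in the other TCDD arrays. In DMSO it was 0.47 in DMSO 3, -0.69 in DMSO 1 and -5.65e-05 to 0.17 in the others. DMSO 3 thus lay among the TCDD arrays in this measure.

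Among the 28 pairs of genes, 11 had a Pearson r over 0.5 across the 10 arrays, with a median of 0.41, and without DMSO 1, over 9 arrays, 13 did, with a median of 0.43. These are descriptions over arrays that share the group difference and the tissue content. star, hsd3b1, cyp17a1, cyp17a2 and cyp11c1 formed all but 1 of the 11 pairs, and the remaining pair was hsd17b3 with hsd11b2 at 0.71. The highest values without DMSO 1 were 0.93 for cyp17a1 with hsd3b1 and 0.84 for hsd3b1 with cyp11c1. hsd3b2 stood outside this group, with r between -0.13 and 0.42 to the other genes.

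The values were also set against intestine and liver content with the 2 scores as covariates in the fit over all genes. The differences of star, hsd3b1, cyp17a1, cyp17a2 and cyp11c1 were then larger, at 1.09 (95% CI 0.32 to 1.85), 1.17 (95% CI 0.48 to 1.86), 0.87 (95% CI 0.40 to 1.33), 0.99 (95% CI 0.64 to 1.33) and 0.61 (95% CI 0.22 to 1.01). These 5 of 8 genes were higher at an unadjusted p under 0.05, where 2.77% of all genes were called in that direction. By contrast, hsd11b2 differed by 0.19 and hsd17b3 by -0.18, both with intervals that included 0. Again 0 of 8 passed the adjusted threshold in limma (background 0%), and the smallest limma adjusted p of the 8 was 0.401, for cyp17a2. The intestine score rests on DMSO 1, TCDD 2 and TCDD 3 and the liver score on TCDD 5, so that these fits lean on few arrays. The liver list itself was higher in TCDD in 30 of 30 genes (54.6% of all genes), with a median difference of 0.99. Of these, 4 had an unadjusted p under 0.05 in limma (0.8% of all genes). Without TCDD 5 it was higher in 29 of 30 (55% of all genes), 8 of them at that level (0.665%), with a median of 0.45. The 30 genes were read on the same arrays, so these counts are not 30 independent results. The mean of the liver list was 10.5 in TCDD 5 and 7.45 in DMSO 1, the array with the highest intestine score. Within the list, apobb.1 and apoc2 were at 12.7 and 12.5 in DMSO 1, while fga and fgb were at 7.82 and 7.10 there. The part of the liver list in the values of the steroid synthesis genes was not tested beyond these fits.

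**Figure D3:**
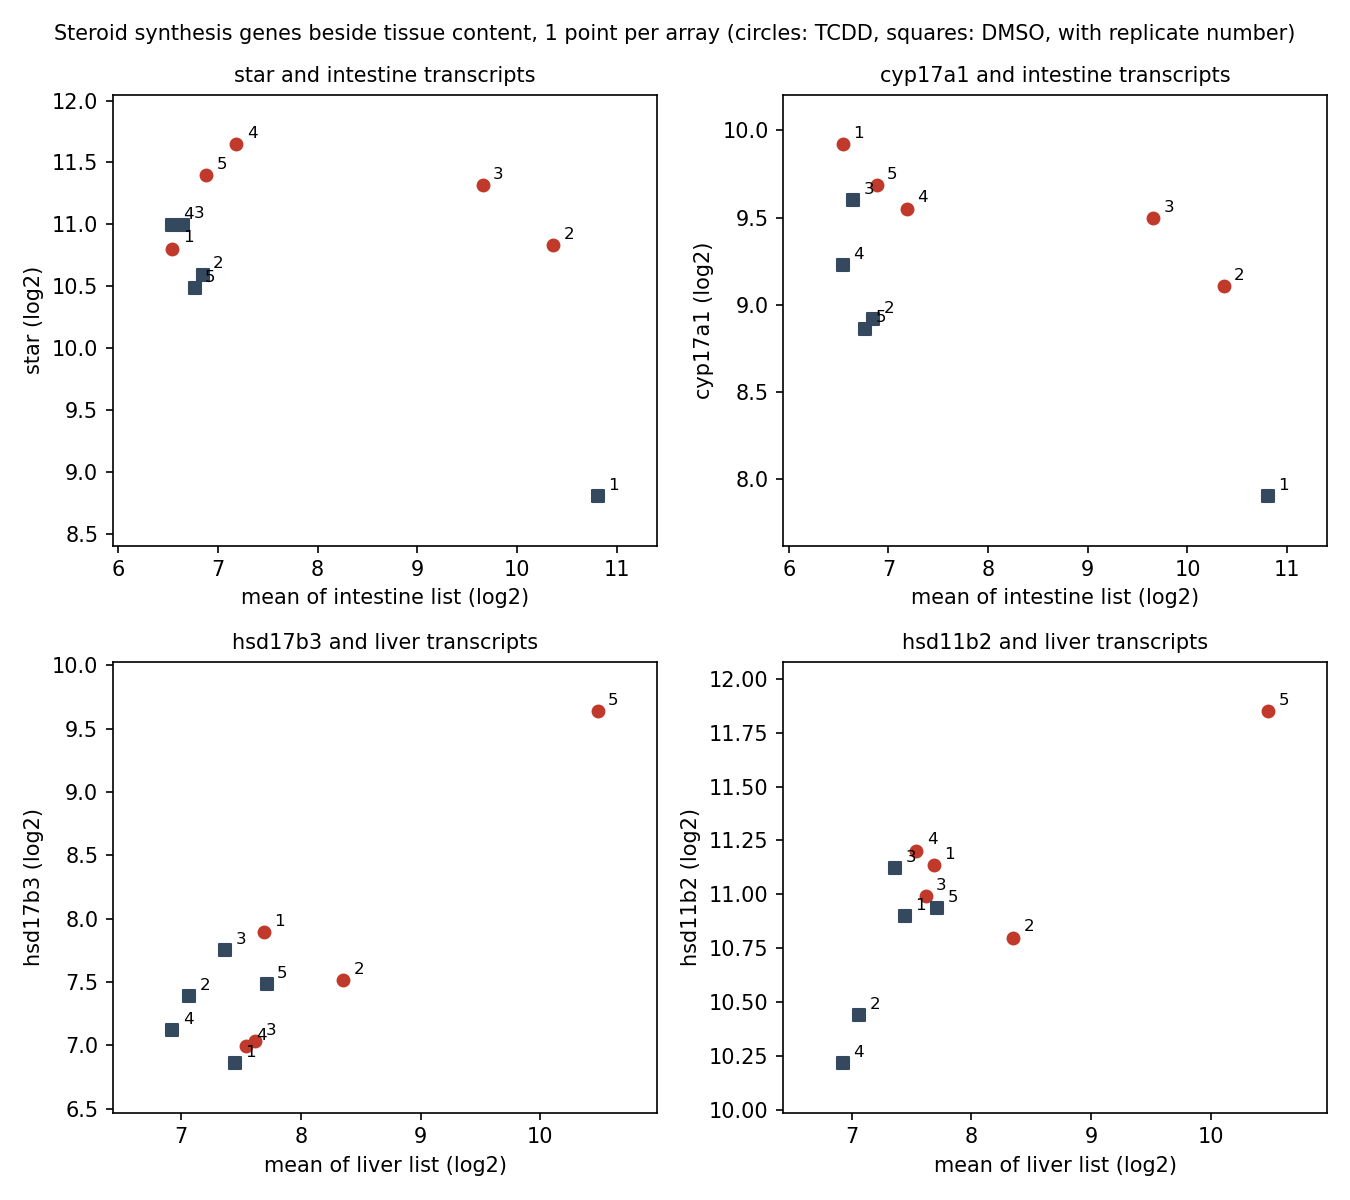
Log2 value of star and cyp17a1 against the mean of the intestine list (upper panels), and of hsd17b3 and hsd11b2 against the mean of the liver list (lower panels), 1 point per array (circles TCDD, squares DMSO, with replicate numbers). DMSO 1 is the point at 10.8 on the intestine axis and the lowest in both upper panels, and TCDD 5 is the point at 10.5 on the liver axis and the highest in both lower panels.

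Without DMSO 1 and TCDD 2, the arrays with the highest intestine scores, 5 of 8 genes were higher at an unadjusted p under 0.05 (background 3.77%), with star at 0.52 (95% CI 0.08 to 0.96), cyp17a1 at 0.51 (95% CI 0.11 to 0.91), cyp17a2 at 0.62 (95% CI 0.23 to 1.01), hsd3b1 at 0.77 and hsd11b2 at 0.62. Without DMSO 1 alone, 1 of 8 was called, cyp17a2 (background 3.66%). The count was also 1 without TCDD 1, TCDD 3, TCDD 4 or TCDD 5, against backgrounds of 0.758%, 0.867%, 0.613% and 0.665%. It was 1 without DMSO 2 or DMSO 5 (backgrounds 0.493% and 0.582%) and 3 without DMSO 4 (0.841%). The counts without TCDD 2 and without DMSO 3 were 4 and 6 (1.4% and 1.21%).

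**Figure D4:**
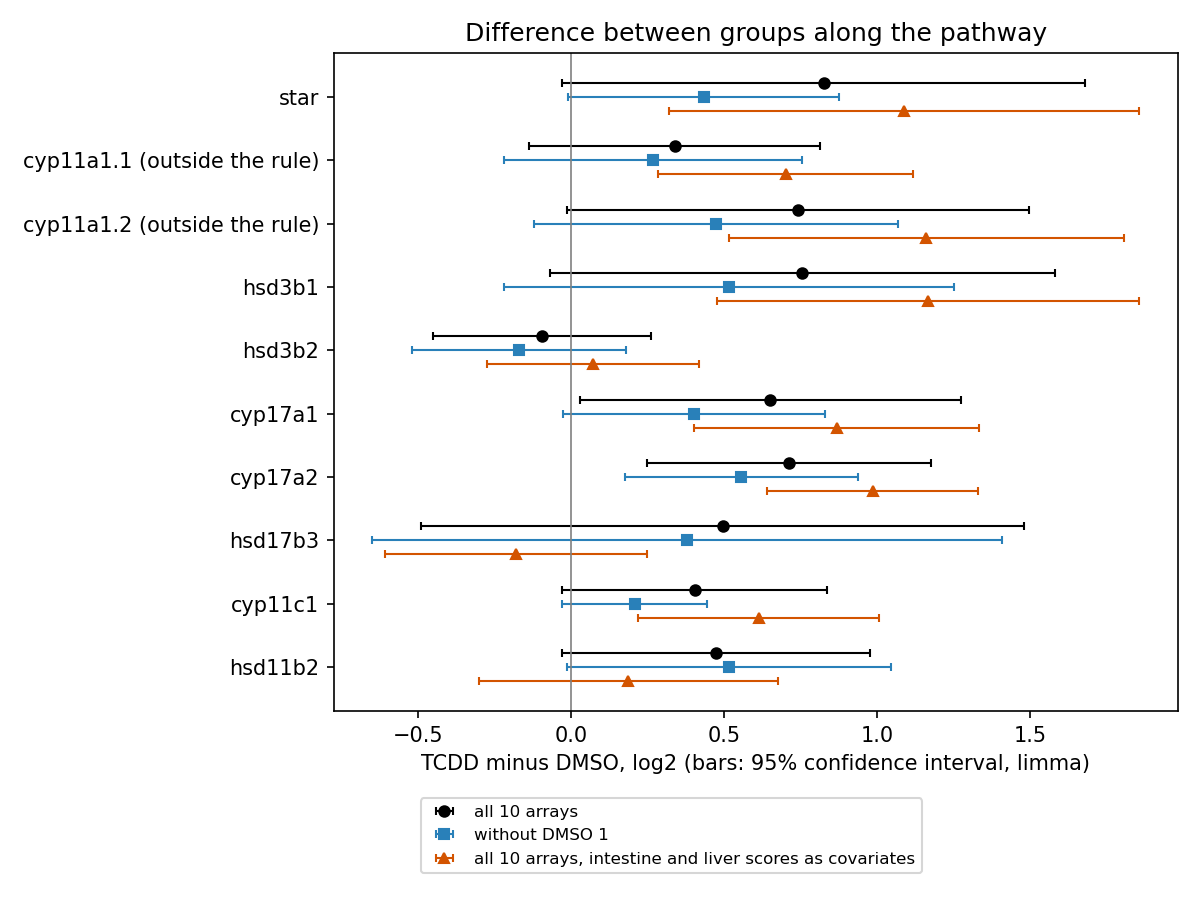
TCDD minus DMSO difference on the log2 scale (horizontal axis) with its 95% confidence interval from limma, for the 8 genes and, marked as outside the rule, cyp11a1.1 and cyp11a1.2, in pathway order. Circles use all 10 arrays, squares leave out DMSO 1, and triangles add intestine and liver scores as covariates. For star the 3 values are 0.83, 0.43 and 1.09, and for hsd17b3 they are 0.49, 0.38 and -0.18.

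The wider set of genes around these steps had no direction that held across fits. Of 46 listed genes of cholesterol supply, electron transfer to the mitochondrial P450 enzymes and other steroid conversions, 40 were measured. In TCDD 17 of the 40 were higher (54.6% of all genes), and the median difference of the 40 was -0.027 (0.018 over all genes). Without DMSO 1 it was 0.083 (-0.012 over all genes), and in the fit with both tissue scores it was -0.15 (0.044 over all genes). At an unadjusted p under 0.05, 0 were higher and 1 was lower, hsd17b8 of the 17-beta-hydroxysteroid dehydrogenase family, at -0.48 (95% CI -0.92 to -0.05), against backgrounds of 0.8% and 1.68%. cyp19a1a encodes the gonadal aromatase, which turns androgens into estrogens. Its mean was 6.49 ± 0.28 with TCDD and 6.78 ± 0.25 with DMSO (SD, n = 5 each), which is -0.29 (95% CI -0.67 to 0.08). fdx1b, a ferredoxin that passes electrons to the steroid-making P450 enzymes, differed by 0.38 (95% CI -0.26 to 1.03) and fdxr, the reductase that feeds it, by 0.23 (95% CI -0.16 to 0.62). fdx1b was at 5.83 in DMSO 1 and at 6.74 to 7.52 in the other arrays.

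Of 14 genes of Leydig cells and their control, 10 had a difference above 0 (54.6% of all genes), with a median of 0.23. At an unadjusted p under 0.05 in limma, 4 of the 14 were higher and 0 lower (0.8% and 1.68% of all genes). nr5a1b, a steroidogenic factor 1 gene whose product activates many steroid synthesis genes, was at 10.51, 10.05, 10.34, 10.72 and 10.73 in TCDD 1 to TCDD 5 and at 8.70, 9.62, 9.93, 9.82 and 9.37 in DMSO 1 to DMSO 5, with no overlap between groups. Such a separation, with every TCDD array above every DMSO array, was seen in 0.0987% of all genes and in 0 of the 8 steroid synthesis genes. The other 3 were sik1, a kinase gene induced by cAMP, at 0.91 and also with no overlap between groups, gata4 at 0.59 and nr4a1 at 0.41. This list was drawn up with earlier results of these arrays known, and its count is no independent evidence of a direction. Sertoli cell genes, which mark the cells that nurse the germ cells, averaged 10.2 to 11.6 in TCDD and 9.63 to 10.8 in DMSO. Their difference was above 0 in 8 of 8 (54.6% of all genes), with a median of 0.48. These genes were read on the same arrays and are not 8 independent results.

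The genes whose values followed the mean profile of the 8 most closely were dse, elovl7a, frmd4a, ddr2l, gpm6bb, rtn1b, cyp20a1 and slc2a1b, the 8 highest by Pearson r among 16929 candidates over 10 arrays. Their r lay between 0.94 and 0.96, with Spearman's rho of 0.83 to 0.98. dse differed by 0.40 between the groups (95% CI -0.01 to 0.80) and rtn1b by 0.46 (95% CI -0.26 to 1.18). Over the 9 arrays without DMSO 1 the 8 highest were rhoca, tmem30aa, tspan31, nucb2a, fbxl20, pgd, elovl6l and srprb, with r of 0.94 to 0.97, and 0 were shared with the first 8. Which genes ranked highest thus depended on DMSO 1. Of the second set elovl6l kept an r of 0.89 over all 10 arrays, and rhoca had 0.06.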

How the data were processed

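The deposited table holds 1 value per probe for 10 arrays, read as log2 expression values from their range of 1.25 to 14.6. Per the labels' protocols, total RNA was labelled with biotin for the Affymetrix array. The sources used here do not give the background correction, normalization or software. Array medians were 6.71 to 6.87, and 0 columns were unassigned. Of 75212 probes, the platform annotation named 1 gene for 20806, several for 855 and none for 53551. The probe with the highest mean was kept per gene (19260 genes). Symbols were updated by Entrez identifier, which matched for 20323 probes and changed 1.

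limma 3.58.1 in R 4.3.3 compared the groups over all genes, unpaired, with Benjamini-Hochberg adjustment. Intervals are limma's. An exact permutation test over all 252 arrangements (smallest possible p 0.00794) was an alternative. It gave 8 unadjusted p-values for the 8 genes. Precision is limited by the number of arrays (median standard error 0.18). Alternatives were the replicate block, trend with robust estimation, array weights, 2 normalizations, 2 filters on dim probes, probe averaging, tissue scores as covariates, and arrays left out. Named were all 8 genes, genes of the steroid, Leydig and interrenal lists with an unadjusted p under 0.05 or up to 4 with the smallest p, and 8 genes of highest likeness. Marker genes and cyp11a1.1 and cyp11a1.2 were added for context. The genes, lists and alternatives were chosen with earlier results of these data known. No protein, promoter or genome sequence was used here.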

Additional observations from a re-analysis of the deposited data

Results flagged for a closer look

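Of 16 sets of 5 arrays (8 genes in 2 groups), 2 held an array that stood apart by Dixon's test at its 95% critical value of 0.71, and chance gives about 1 in 20 such sets. Both were in DMSO 1. star was at 8.80 there, with 10.48 as the nearest DMSO value, and the gap was 0.77 of the group's range. cyp11c1 was at 7.88, with 8.76 as the nearest, and the gap was 0.81 of the range. DMSO 1 was also the array with the highest intestine and pancreas scores (10.8 and 12.1) and the lowest germ cell score (8.50), and the part of these in its low values was not tested. Without DMSO 1 the TCDD minus DMSO differences of star and cyp11c1 were 0.43 and 0.21.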

How the results depend on the processing

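Under all 25 alternatives 0 of 8 genes passed an adjusted p of 0.05 (0 to 0 with single arrays left out), and the smallest limma adjusted p of any of them was 0.379. The exact permutation test is among the 25 and has no limma p. Its smallest possible p of 0.00794 leaves little room to pass after adjustment over 19260 genes, so its count adds no support. star, cyp17a1, cyp17a2, hsd3b1, cyp11c1 and hsd11b2 kept a positive difference in each alternative, and the median of the 8 genes stayed between 0.42 and 0.77 (0.42 to 0.68 with single arrays left out). Some alternatives leave each difference of the 8 genes as it was and could not alter its sign. They are the replicate block, trend with robust estimation, the filters on dim probes, probe averaging and the permutation test. The count of genes higher at an unadjusted p under 0.05, 2 in the fit of all arrays, was 1 to 6 with single arrays left out, 6 with array weights (3.83% of all genes), 5 with the intestine score (3.11%), with intestine and liver scores (2.77%) and with pancreas, intestine and liver scores (6.25%), 1 with the liver score (0.659%), 5 without both DMSO 1 and TCDD 2 (3.77%), and 4 without all of DMSO 1, TCDD 2 and TCDD 5 (3.72%). It was 3 of 8 in the exact permutation test (0.826%). hsd3b2 turned to 0.071 with intestine and liver scores and to 0.061 with the pancreas score added. hsd17b3 turned to -0.18 and -0.17 in these fits, to -0.32 with the liver score and to -0.13 without DMSO 1, TCDD 2 and TCDD 5. The median of the other steroid genes turned from -0.027 to 0.074 with array weights, 0.014 with median centring, 0.083 without DMSO 1 (-0.074 to 0.083 with single arrays left out), 0.11 without DMSO 1 and TCDD 2 and 0.10 without DMSO 1, TCDD 2 and TCDD 5. The cause of these turns was not tested. Deviations of same-numbered samples had correlations of -0.58 to 0.29 over 5 numbers. The arrays differed in tissue content, so these values cannot decide whether the numbers pair the samples. With the replicate block 2 of 8 genes were higher at an unadjusted p under 0.05 (0.846% of all genes), star and cyp17a2, while cyp17a1 was not called. The median difference was 0.57, which the block cannot change. Each gene had 1 probe, so testing every probe gave no further value. Detection calls were not used here, and the array number limits precision.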
